A study of Mus musculus with 6 samples.

Results

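Transcripts of 9 deacetylase genes were followed in mouse oocytes of the germinal vesicle (GV) stage, when the large nucleus is still intact and meiosis has not resumed. The 9 genes were chosen by symbol, 4 histone deacetylases (Hdac1, Hdac2, Hdac3 and Hdac6) and 5 sirtuins (Sirt1, Sirt2, Sirt3, Sirt6 and Sirt7), out of 25239 genes in the deposited table, and all 9 had a row there. The 6 libraries came from females of CD-1, an outbred stock, aged 4 to 6 weeks. There were 3 libraries of oocytes injected with water and 3 of oocytes that received a phthalate metabolite mixture, the breakdown products of plasticizers. Oocytes of both groups were injected inside their cumulus-oocyte complexes, that is with their follicle cells still attached. They were then kept in maturation medium with 10% fetal bovine serum, 50 ug/mL pyruvate and 200 mIU/mL follicle-stimulating hormone. The compounds in the mixture and their dose are not given in the sources used here. The comparison asks how the mixture affects the transcripts of the oocyte.

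Histone deacetylases remove acetyl groups from lysines of histones and other proteins. Class I enzymes (Hdac1, Hdac2, Hdac3) are zinc-dependent nuclear enzymes that work inside corepressor complexes, and Hdac6 is a class IIb enzyme of the cytoplasm that deacetylates tubulin. Sirtuins depend on NAD and are found in the nucleus (Sirt1, Sirt6), the nucleolus (Sirt7), the cytoplasm (Sirt2) and the mitochondria (Sirt3). In the growing mouse oocyte Hdac2 is known as the major class I deacetylase, and histones are deacetylated broadly once the oocyte resumes meiosis.

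The genes lie apart in the mouse genome (GRCm38, GENCODE M21): Hdac1 at chr4:129516104-129542713, Hdac2 at chr10:36974544-37001889, Hdac6 at chrX:7930120-7947889 and Sirt1 at chr10:63319005-63381704. Sirt6 is at chr10:81621785-81627797, Sirt7 at chr11:120618372-120625240, Sirt2 at chr7:28766735-28788661 and Sirt3 at chr7:140863666-140882309. Hdac1 is the member whose counts depend most on how reads with several matches were assigned, which is not given in the sources used here. Its processed pseudogene Gm10093 (chr17:78491582-78493025), a copy of the spliced messenger RNA, matched 1444 of the 2038 bases of the Hdac1 transcript at 99.4% identity. Of all stretches of 150 bases in that transcript, the length of a sequencing read here, 37.3% occurred unchanged in a transcript of another gene. The share was 0% for Hdac2, Hdac3, Hdac6, Sirt1, Sirt2, Sirt6 and Sirt7. For Sirt3 it was 18.3%, from exons of Ric8a that overlap it on the opposite strand. Gm10093 has no row among those analysed here. Exons also overlap on the opposite strand for Sirt1 (65 bases, Gm16145), Sirt2 (42 bases, Nfkbib) and Sirt3 (342 bases, Psmd13), and on the same strand for Sirt7 (124 bases, Mafg). Whether strand was used in counting is not given in the sources used here. The coding stretches below, from bases 28 to 117 of the Hdac1 coding sequence, are printed because they show which pair of genes reads can and cannot tell apart. Capitals mark bases that differ from Hdac1.
Hdac1: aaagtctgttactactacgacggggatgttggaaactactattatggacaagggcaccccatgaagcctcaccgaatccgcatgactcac
Gm10093: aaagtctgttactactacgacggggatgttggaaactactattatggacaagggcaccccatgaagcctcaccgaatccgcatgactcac
Hdac2: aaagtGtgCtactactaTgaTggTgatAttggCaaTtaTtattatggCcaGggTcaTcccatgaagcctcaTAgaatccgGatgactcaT
The pseudogene had 0 differences over these 90 bases, and Hdac2 had 17. Over their whole coding sequences Hdac1 and Hdac2 were 74.6% identical, so reads of these 2 enzymes are separable while reads of Hdac1 and Gm10093 often are not.

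Gene counts per library ranged from 252267 to 300917, with 292 to 753 counts of ERCC spike-in RNA and 358 to 942 gene counts per spike-in count. The share of Rn45s, the ribosomal RNA precursor, ran from 2.02% to 2.35% in the water libraries and from 2.89% to 3.54% in the phthalate libraries. The labelled cell type was borne out by its markers: 14 of 15 oocyte markers had counts, and together they took 2.66% to 3.10% of a library's counts, with Sohlh1 alone at 0. Of 20 cumulus and granulosa markers 9 were at 0 in every library, among them Amh, Foxl2 and Star. This list took 16 to 40 counts per library (0.00564% to 0.0148% in the water group and 0.00727% to 0.0108% in the phthalate group), mostly from Nr5a2 and Gata4. Whether follicle cell RNA has a part in any value below was not tested.

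The labels name neither an animal nor a culture for a library, and do not settle whether each of a group's 3 libraries is a separate oocyte. Each library is called an oocyte here after its title, each group is treated as 1 sample, and no difference below carries a test against replicate animals. Levels are given in CPM, counts per 1000000 after scaling library totals by TMM factors. A ratio is the log2 of phthalate over water from counts summed over 3 oocytes, with an exact 95% interval that covers counting error only. In 1 library 1 count was worth 3.31 to 3.89 CPM. Of the 43 values above 0 among the members 30 were even. This was not particular to the members, since 69.9% of counts from 1 to 20 over all genes were even. Whether both mates of a read pair were counted is not given in the sources used here, and where intervals with mates counted once are printed, 2 counts stand for 1 pair.

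All 9 members together took 447 counts, 0.0267% of the gene counts of the 6 oocytes. Hdac2, Sirt6 and Sirt7 held 76.3% of them (95% exact binomial interval 72.1 to 80.2). These 3 were also the only members to pass the filter on low counts, which 4644 genes passed. By mean count, Sirt6 ranked 2353rd and Hdac2 3076th of 12804 genes with a count. Sirt3 had 2 counts in total. A count was seen in all 6 oocytes for 5 members: Hdac2, Hdac6, Sirt1, Sirt6 and Sirt7.

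**Figure D1:**
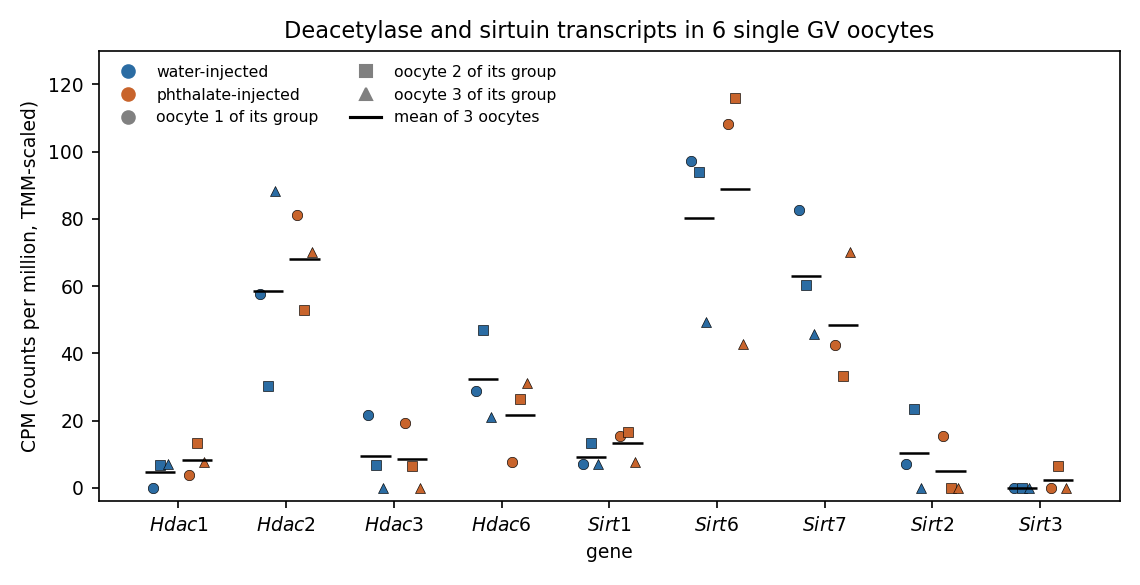
CPM of each of the 9 genes (y axis) in each oocyte, blue for water and orange for phthalate, with the symbol giving the oocyte's number and the bar the mean of 3. The means of Hdac2, Sirt6 and Sirt7 stand above those of the others, and for no gene do the groups separate.

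Among the 3 class I members most counts belonged to Hdac2, a catalytic subunit of SIN3, NuRD and CoREST complexes, with 105 of 131 counts (80.2%, interval 72.3 to 86.6). Hdac2 had 16, 9 and 25 counts in water oocytes 1, 2 and 3, or 57.6, 30.2 and 88.2 CPM. In phthalate oocytes 1, 2 and 3 it had 21, 16 and 18 counts, or 81.2, 53.0 and 70.0 CPM. The lowest and the highest value were both in the water group, and all 3 phthalate values lay between them. The sums were 50 and 55 counts, a log2 ratio of 0.21 (-0.37 to 0.79). Without water oocyte 3, the highest, the ratio was 0.63, and without water oocyte 2, the lowest, it was -0.12.

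Hdac1, the close paralog of Hdac2 in the same complexes, had 0, 2 and 2 counts with water and 1, 4 and 2 with phthalate. In CPM the water values were 0, 6.72 and 7.05 and the phthalate values 3.87, 13.3 and 7.78, and the groups overlapped. The sums of 4 and 7 counts gave a ratio of 0.88 (-1.10 to 3.10), and with mates counted once the interval ran from -1.73 to 4.54. It was 0.32 without phthalate oocyte 2, which held 4 of the 7 counts, and also 0.32 without water oocyte 1, which had none. Hdac2 was above Hdac1 per kilobase in 6 of 6 oocytes. Hdac1 took 7.41% of the Hdac1 and Hdac2 counts in the water group (4 of 54, interval 2.06 to 17.9) and 11.3% in the phthalate group (7 of 62, interval 4.66 to 21.9). Reads that Hdac1 shares with Gm10093 touch this share, and their number was not tested.

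Hdac3, the catalytic subunit of the NCOR and SMRT corepressor complexes, had 6, 2 and 0 counts with water and 5, 2 and 0 with phthalate. Each group held an oocyte without a count and an oocyte near 20 CPM (21.6 in water and 19.3 in phthalate), so the spread within a group was as wide as the level itself. The sums were 8 and 7 counts and the ratio was -0.12 (-1.82 to 1.54). It was 1.32 without water oocyte 1 and -1.38 without phthalate oocyte 1. No difference was resolved within that interval.

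Hdac6, the tubulin deacetylase of the cytoplasm that also binds ubiquitin, had 28.8, 47.0 and 21.2 CPM in the water oocytes, from 8, 14 and 6 counts. The phthalate oocytes had 7.73, 26.5 and 31.1 CPM, from 2, 8 and 8 counts. The highest value was in the water group and the lowest in the phthalate group, while the other 4 oocytes lay between 21.2 and 31.1 CPM. The sums of 28 and 18 counts gave a ratio of -0.57 (-1.51 to 0.34). After scaling, the phthalate level was 0.676 of the water level, just inside the 1.5-fold limit used below. The side of that limit rested on which oocytes entered. The ratio was -0.18 without water oocyte 2 and -0.19 without phthalate oocyte 1, but past the limit without any other oocyte: -0.64 and -0.80 when water oocyte 1 or 3 was left out, and -0.75 and -0.87 when phthalate oocyte 2 or 3 was.

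Among the nuclear sirtuins Sirt6 had the most counts of all 9 members. Sirt6, a chromatin-bound enzyme known for work at telomeres and in DNA repair, had 27, 28 and 14 counts with water and 28, 35 and 11 with phthalate. The levels were 97.1, 94.0 and 49.4 CPM in water and 108, 116 and 42.8 CPM in phthalate. In each group oocytes 1 and 2 were at 94.0 CPM or more, and oocyte 3 was the lowest. The sums were 69 and 74 counts, with a ratio of 0.17 (-0.32 to 0.67). It was 0.48 without phthalate oocyte 3 and -0.087 without phthalate oocyte 2.

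Sirt7, the sirtuin of the nucleolus, which is known to act on ribosomal gene transcription, did not share this pattern. It had 82.7, 60.4 and 45.8 CPM in the water oocytes, from 23, 18 and 13 counts. In the phthalate oocytes it had 42.5, 33.1 and 70.0 CPM, from 11, 10 and 18 counts. Phthalate oocyte 3, the lowest of all for Sirt6, was the second highest for Sirt7, and the other 2 phthalate oocytes lay below every water oocyte. The sums of 54 and 39 counts gave a ratio of -0.40 (-1.03 to 0.22). Without phthalate oocyte 3 it was -0.75, and without phthalate oocyte 2 it was -0.16. The share of Rn45s was higher in each phthalate oocyte than in any water oocyte, also in phthalate oocyte 3 with its high Sirt7, and a relation of the 2 genes was not tested.

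Because Sirt6 and Sirt7 are counted in the same libraries, their balance needs no scaling. Sirt6 took 54.0%, 60.9% and 51.9% of the Sirt6 and Sirt7 counts with water, and 71.8%, 77.8% and 37.9% with phthalate. The water oocytes lay close together, and the phthalate oocytes lay on either side of them. In the sums the share was 56.1% (69 of 123, interval 46.9 to 65.0) in water and 65.5% (74 of 113, interval 56.0 to 74.2) in phthalate, and these intervals overlapped.

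Sirt1, the nuclear sirtuin that deacetylates histones and transcription factors, was detected in every oocyte at 2 to 5 counts. Its levels were 7.20, 13.4 and 7.05 CPM in water and 15.5, 16.6 and 7.78 CPM in phthalate. The groups overlapped, with 2 phthalate oocytes above all water oocytes. The sums of 8 and 11 counts gave a ratio of 0.53 (-0.92 to 2.05). It was past 1.5-fold without water oocyte 2, at 0.92, and without phthalate oocyte 3, at 0.78.

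Sirt2, which deacetylates tubulin in the cytoplasm as Hdac6 does, had 2, 7 and 0 counts with water and 4, 0 and 0 with phthalate. Counts were seen in only 3 of the 6 oocytes, at 7.20, 23.5 and 15.5 CPM. The sums of 9 and 4 counts gave a ratio of -1.10 (-3.25 to 0.74). This direction rested on water oocyte 2, without which the ratio was 0.46, and it was -1.68 without water oocyte 3.

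Sirt3, the main deacetylase of mitochondria, had 0 counts in all 3 water oocytes, and 2 counts in phthalate oocyte 2 with 0 in the other 2. In the water group 0 of 854185 counts allows up to 3 counts, or 3.49 CPM. Both sums lay at or under that limit of 3 counts, so no ratio is given.

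The 8 members with a ratio were set beside all genes of like abundance. Sirt3, with a mean count under 1, falls in none of the classes used. Past 1.5-fold were 2 of the 8 members with a ratio, Hdac1 upward and Sirt2 downward. Both belong to the genes with a mean count from 1 to 5, among which 63.9% of 3582 genes were past 1.5-fold in one direction or the other. The share was 32.0% for a mean count from 5 to 20, where Hdac2, Hdac6 and Sirt7 fall, and 8.12% for a mean count of at least 20, where Sirt6 falls. None of these 4 was past it. The 3 phthalate values did not overlap the 3 water values for 0 of these 8 members. Such separation was seen for 9.72%, 10.3% and 10.2% of genes in the 3 classes of abundance, and for 10.1% of the 4644 genes that passed the filter. Of the 8 members 4 had a ratio above 0 and 4 below, with a median of 0.026. The median over the 4644 genes was 0.0089. The count of members past 1.5-fold moved from 0 to 2 upward and from 0 to 3 downward as single oocytes were left out: the upward count was 0 without phthalate oocyte 2, and the downward count was 0 without water oocyte 2 and 3 without water oocyte 3.

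**Figure D2:**
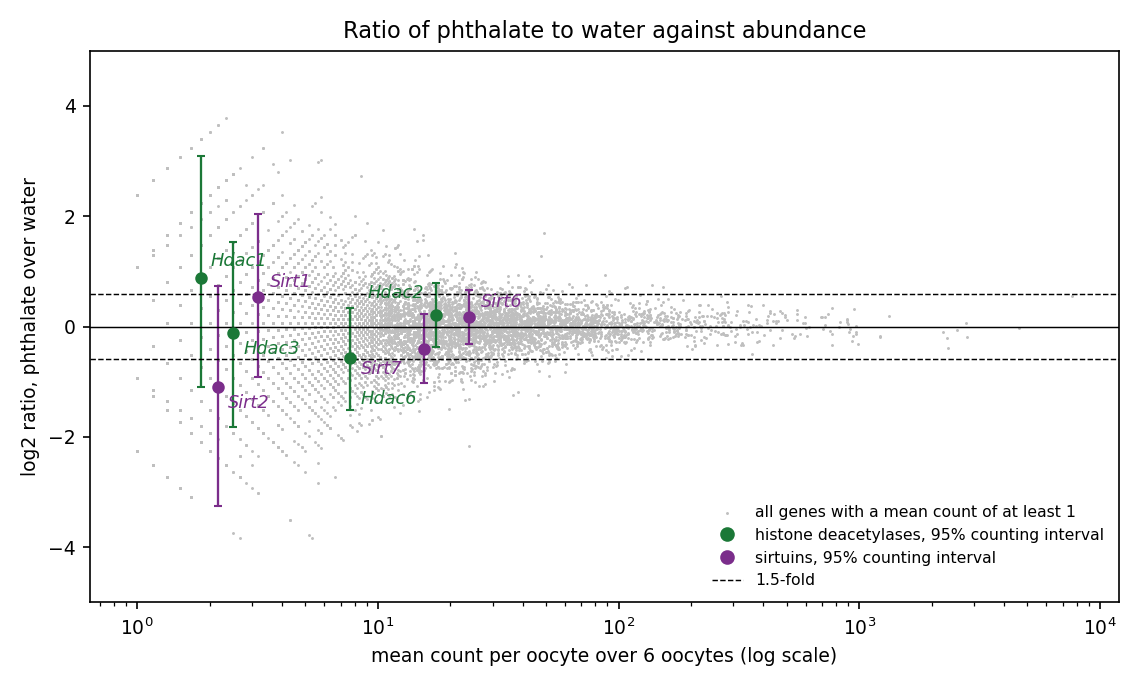
Log2 ratio of phthalate over water (y axis) against mean count per oocyte (x axis, log scale) for all genes with a mean of 1 count or more (grey), with 8 members and their 95% counting intervals. Hdac1 and Sirt2 lie past the dashed 1.5-fold lines in the part of the plot where most genes are past them, and every member interval spans 0.

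Between the groups no difference was resolved in the members' joint share of the transcriptome. They took 0.0269% of the counts in the water group (230 of 854185, interval 0.0236 to 0.0306) and 0.0264% in the phthalate group (217 of 822225, interval 0.0230 to 0.0301). Per oocyte the shares were 0.0312%, 0.0279% and 0.0218% in water and 0.0301%, 0.0278% and 0.0215% in phthalate, so the groups overlapped over nearly their full ranges. Sirtuins made up 60.9% of the member counts in water (interval 54.2 to 67.2) and 59.9% in phthalate (interval 53.1 to 66.5). The lowest sirtuin shares were 46.8% in water oocyte 3 and 52.5% in phthalate oocyte 3, the 2 oocytes in which Sirt6 was low.

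Levels were compared between genes per kilobase of the longest annotated transcript. Sirt6 was highest, with a mean of 44.7 CPM per kilobase over the 6 oocytes (range 22.6 to 61.4). Hdac2 followed at 19.5 (9.30 to 27.1) and Sirt7 at 17.04 (10.1 to 25.3). The range of Sirt6 overlapped that of Hdac2, and the range of Hdac2 that of Sirt7. Within oocytes Sirt6 was above Hdac2 in 5 of 6 and above Sirt7 in 6 of 6. The longest Sirt7 transcript keeps an intron. Per kilobase of its longest protein-coding transcript Sirt7 had 32.3 (19.2 to 47.9) and came before Hdac2, and Sirt6 was then above it in 4 of 6 oocytes.

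The remaining 6 members lay lower per kilobase, with means of 5.37 for Hdac6, 3.63 for Sirt2, 3.16 for Hdac1, 2.54 for Sirt1, 2.52 for Hdac3 and 0.345 for Sirt3. Neighbours among these 6 had overlapping ranges. The mean of Sirt2 was 2.15 without water oocyte 2, below Hdac1, Sirt1 and Hdac3, and that of Sirt3 was 0 without phthalate oocyte 2. Per kilobase of the median transcript length of each gene all means were higher, and Hdac6 was at 29.6, close to Sirt7 at 35.6. In 5 of 6 oocytes the lowest of Hdac2, Sirt6 and Sirt7 was above the highest of these 6. The exception was water oocyte 2, where Hdac2 had 9 counts.

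**Figure D3:**
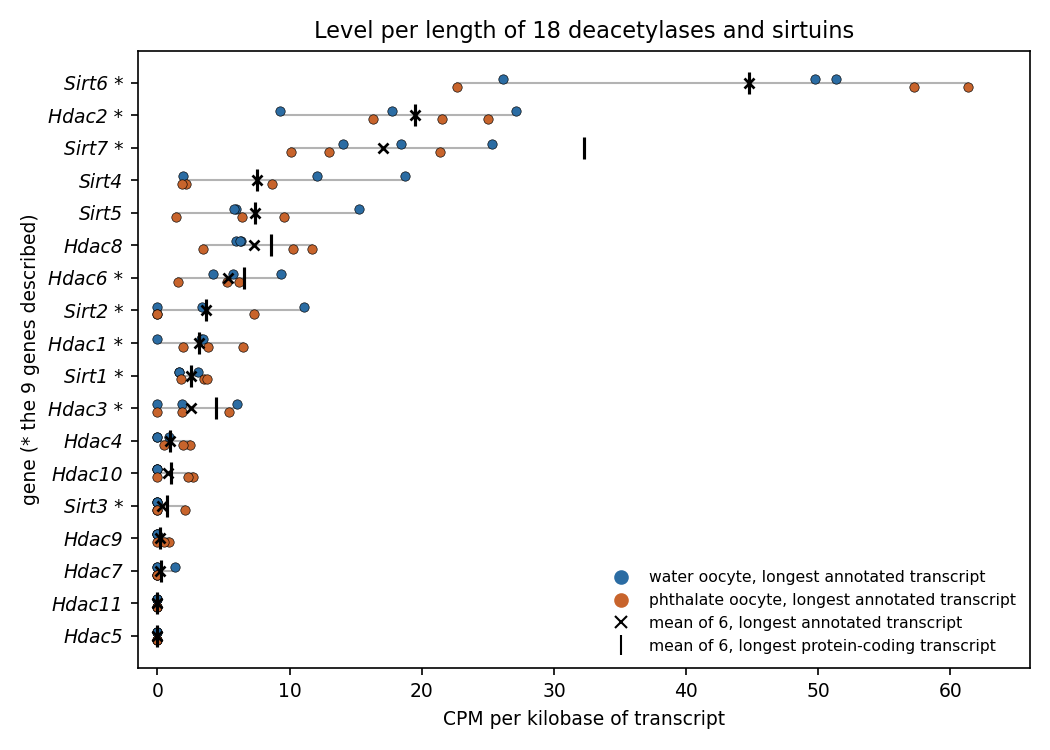
CPM per kilobase of transcript (x axis) for 18 deacetylases and sirtuins, with each oocyte as a point (blue for water, orange for phthalate), the mean over 6 oocytes as a cross and, as a vertical tick, the mean per kilobase of the longest protein-coding transcript. Sirt6 leads with a mean of 44.7, and among the 9 members, marked by asterisks, the tick of Sirt7 at 32.3 lies farthest from its cross.

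The genes with the pattern most like that of Sirt6 over the 6 oocytes were sought among 448 other genes whose mean count reached 100. The measure was the root mean square of the differences in log2 CPM, each gene centred on its own mean. It was 0.24 for Kdm6b, which encodes a histone H3 demethylase, 0.27 for Siah2, a ubiquitin ligase, and 0.28 for Mtmr14, a phosphoinositide phosphatase. Over the 448 genes the median was 0.58 and the 5th percentile 0.38. These 3 genes were picked as the smallest values, so their place below both was set by the choice. Kdm6b had 144, 130 and 114 counts in water and 173, 168 and 69 in phthalate, and like Sirt6 was lowest in phthalate oocyte 3. Siah2 had 62 counts in that oocyte against 116 to 180 in the others. These genes and Sirt6 share the same 6 libraries and their depth. Among the 4 members with a mean count of at least 5, the difference was smallest between Hdac6 and Sirt7 (0.51) and largest between Hdac2 and Hdac6 (0.94).

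The other 9 deacetylases and sirtuins had few counts, and none passed the filter. Hdac8, a class I enzyme, had 4 counts in each water oocyte and 6, 8 and 2 with phthalate, a ratio of 0.49 (-0.68 to 1.70). Sirt4 and Sirt5, which are mitochondrial sirtuins like Sirt3, had more counts than Sirt3. Sirt4 had 6, 10 and 1 counts in water and 1, 1 and 4 in phthalate, a ratio of -1.43 (-3.06 to -0.020), and the groups overlapped. With mates counted once its interval ran from -3.89 to 0.72. The ratio was -0.76 without water oocyte 2 and -2.48 without phthalate oocyte 3. Sirt5 had 4, 11 and 4 counts in water and 6, 1 and 4 in phthalate, a ratio of -0.72 (-1.93 to 0.43) that was -0.082 without water oocyte 2. Of the Sirt5 transcript 16.8% of the 150-base stretches occur in transcripts of other genes. Among the class IIa enzymes, which shuttle between nucleus and cytoplasm, Hdac4 had 2, 0 and 0 counts in water and 1, 6 and 4 in phthalate, a ratio of 2.53 (0.34 to 5.75) from 2 and 11 counts, or -0.39 to 8.18 with mates counted once. Its groups overlapped too. Without water oocyte 1, which held both water counts, the ratio was 1.38 against the limit of 3 counts, and without phthalate oocyte 2 it was 2.06 (-0.55 to 5.45). Hdac10, a class IIb enzyme, had 2, 2 and 0 counts in phthalate and 0 in water, where 0 allows up to 3 counts, so its 4 counts set no direction. Hdac7 had 2 counts and Hdac9 had 3 over all oocytes, and Hdac5 and Hdac11 had 0.

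Genes that work with the deacetylases were followed in 6 lists, of which 67 genes passed the filter. Over all 4644 genes 6.96% were past 1.5-fold upward and 8.14% downward. Of 34 partners in deacetylase complexes 20 passed the filter, with a median ratio of 0.045. None was past 1.5-fold upward and 2 were past it downward. Sap30, a subunit of the SIN3 complex, had 57.6, 124 and 120 CPM in water and 61.8, 63.0 and 46.7 CPM in phthalate, a ratio of -0.82 (-1.36 to -0.29, or -1.58 to -0.053 with mates counted once), and the groups overlapped through water oocyte 1. Kdm1a, the histone demethylase of the CoREST complex, had 64.8, 47.0 and 70.5 CPM in water and 46.4, 23.2 and 46.7 CPM in phthalate. Its ratio was -0.67 (-1.36 to -0.0053), and all 3 phthalate values lay below the water values. With mates counted once the interval ran from -1.62 to 0.32, and with no filter before scaling it ran from -1.35 to 0.0096. Without phthalate oocyte 2 it was -0.38, and without water oocyte 3 -0.55, both inside 1.5-fold. The downward count was 1 without water oocyte 3 and 4 without phthalate oocyte 1. The upward count was 1 without water oocyte 1 or phthalate oocyte 2, and 2 without oocyte 3 of either group. Groups did not overlap for 5 of the 20 partners, against 10.1% of all 4644 genes. Kdm1a, Suds3 (-0.51) and Gatad2b (-0.34) were lower with phthalate, and Arid4a (0.30) and Tbl1xr1 (0.52) higher. The histone-binding partner Rbbp7 had 431, 712 and 612 counts in water and 530, 581 and 638 in phthalate, with a ratio of 0.067 (-0.029 to 0.16). Its relative Rbbp4 had 36 counts in water and 44 in phthalate.

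The enzymes that add acetyl groups and the proteins that read them were set beside all 4644 genes, of which 51.2% had a ratio above 0. The water and phthalate groups did not overlap for 10.1% of these 4644 genes. Of 15 histone acetyltransferases 10 passed the filter, with a median of 0.010. The 1 gene past 1.5-fold was Ep300, which encodes the acetyltransferase p300, with 54.0, 60.4 and 95.2 CPM in water and 42.5, 29.8 and 50.6 CPM in phthalate. Its ratio was -0.79 (-1.45 to -0.15), but -0.51 without water oocyte 3. Ep300 was the 1 of the 10 genes with groups that did not overlap. With mates counted once the interval ran from -1.81 to 0.087. Its paralog Crebbp had 389, 359 and 328 CPM in water and 371, 365 and 346 CPM in phthalate, a ratio of 0.0099 (-0.23 to 0.25). Of 25 acetyl-lysine readers 18 passed the filter, with a median of 0.15. Of these 15 had a ratio above 0, and the median lay between 0.10 and 0.27 as single oocytes were left out. Brd3 alone was past 1.5-fold, at 0.64 (-0.17 to 1.47). It was 0.41 without water oocyte 3, and 0.42 and 0.53 when phthalate oocyte 1 or 2 was left out. The upward count was 0 without water oocyte 3 or phthalate oocyte 2 and 2 without water oocyte 1 or phthalate oocyte 3, and 1 gene was past 1.5-fold downward without oocyte 1 of either group. Groups did not overlap for 2 of the 18 readers, Phip, at 0.56 (0.17 to 0.96), and Trim24, at 0.34 (-0.11 to 0.78), both higher with phthalate. Intervals with mates counted once, which would be wider, are not given for these 2 genes.

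**Figure D4:**
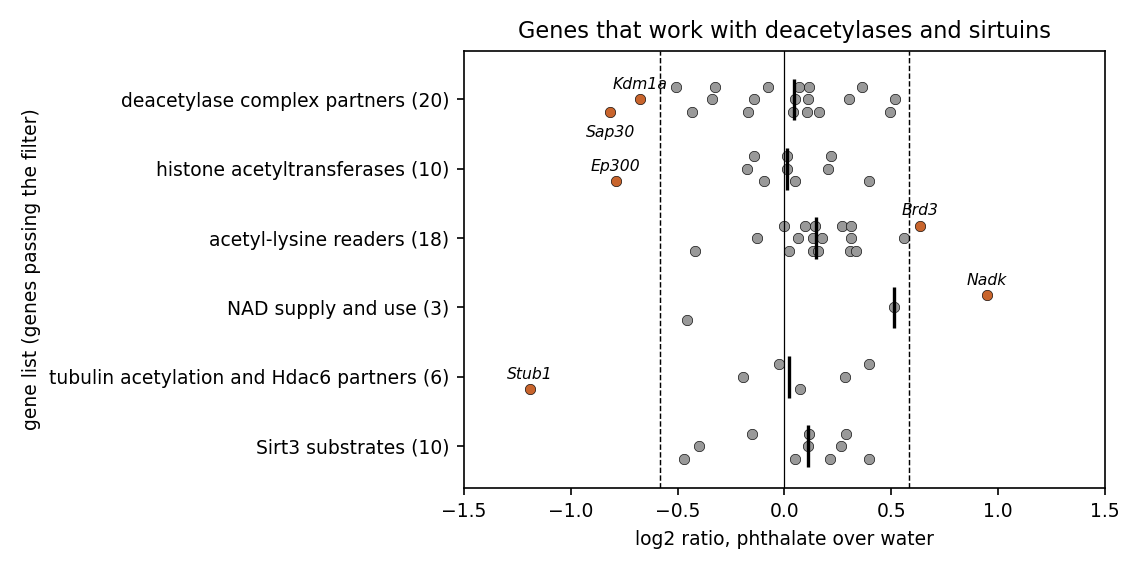
Log2 ratio of phthalate over water (x axis) for the genes of 6 lists that passed the filter (number in brackets), with each gene as a point, the list's median as a bar and dashed lines at 1.5-fold. The 6 genes past 1.5-fold are named in orange, and the medians lie between 0.010 and 0.15 except for the 3 genes of the NAD list, at 0.51.

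Among genes tied to the sirtuins' cofactor, few were counted well. Only 3 of 19 measured genes of NAD supply and use passed the filter, Nadk, Parp1 and Parp2, with a median of 0.51. The median became -0.26 over all list genes with a ratio when the filter was dropped. It ran from 0.25 to 0.71 as single oocytes were left out. The number past 1.5-fold then ran from 1 to 2 upward and from 0 to 1 downward. Nadk, the kinase that makes NADP from NAD, had 50.4, 33.6 and 21.2 CPM in water and 88.9, 66.3 and 46.7 CPM in phthalate, a ratio of 0.95 (0.28 to 1.64, or 0.019 to 1.98 with mates counted once) with overlapping groups. It was 0.69 (-0.025 to 1.45) without water oocyte 3 and 0.71 (-0.055 to 1.48) without phthalate oocyte 1. Nadk passed the filter mainly through the phthalate oocytes, with 23, 20 and 12 counts against 14, 10 and 6 in water. Nampt, which makes the precursor of NAD, did not pass, with 19 counts in water and 10 in phthalate. Of 20 Sirt3 substrates 10 passed, none past 1.5-fold, with a median of 0.11, among them the ATP synthase subunit Atp5o at a mean of 81 counts. Ndufa9, a subunit of respiratory complex I, was the 1 of these 10 genes with groups that did not overlap, at -0.47 (-0.74 to -0.19). Such separation was seen for 10.1% of all 4644 genes. An interval with mates counted once, which would be wider, is not given for Ndufa9. With single oocytes left out, 1 gene was past 1.5-fold upward without water oocyte 3 or phthalate oocyte 1, and 1 downward without phthalate oocyte 2 or 3. Of 10 genes around tubulin acetylation and Hdac6 6 passed, with a median of 0.022. Stub1, a ubiquitin ligase that works with chaperones, had 50.4, 36.9 and 38.8 CPM in water and 19.3, 23.2 and 11.7 CPM in phthalate. Its ratio was -1.19 (-2.17 to -0.29, or -2.51 to 0.18 with mates counted once), and it was the 1 of the 6 genes without overlap. The filter asks for about 10 counts in at least 3 libraries. Stub1 had 14, 11 and 11 counts in water and 5, 7 and 3 in phthalate, so it passed only through the group where it was higher. Its ratio and separation are therefore not free of the filter. Atat1, the tubulin acetyltransferase that opposes Hdac6 and Sirt2, had 11 and 14 counts and a ratio of 0.42 (-0.83 to 1.70). Sap30 was named by a rule of size and abundance, while Kdm1a, Ep300, Brd3, Nadk and Stub1 had mean counts under 20, and these and Ndufa9, Suds3, Gatad2b, Arid4a, Tbl1xr1, Phip and Trim24 were named after their values were seen.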

How the data were processed

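Smart-seq3 libraries, in which oligo(dT) priming and template switching yield full-length cDNA, were read as 150 bp pairs on a MiSeq, per the labels' protocols. The deposited table gives whole-number counts by gene symbol for 25239 genes and 92 ERCC spike-ins. cutadapt, Trimmomatic, HISAT2, DESeq2 and mm10 are named in the submitters' processing notes. The counting tool, annotation, use of strand and treatment of reads with several matches or of molecular identifiers are not given in the sources used here.

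The 9 members and all lists were chosen with earlier results of these data known. Spike-ins stayed out of totals. TMM factors (edgeR 4.0.16, R 4.3.3) were computed over 4644 genes passing filterByExpr (minimum count 10, minimum total 15). Ratios were made from summed counts, with Clopper-Pearson 95% intervals. A sum of 0 was set to 3 counts, and no ratio was given where both sums were at or under 3. No p-value was computed: the labels name no animal or culture for these single cells, so each group was treated as 1 sample. The calculation was tested on simulated data. PCR copies are not independent molecules, so intervals and limits cover counting error only. Transcript lengths and near copies came from GENCODE M21 and BLAST 2.17.0. The rule for named genes took all members, all other deacetylases and sirtuins, listed genes past 1.5-fold with a mean count of at least 20 (up to 4 per list), and the 3 genes most like the member with most counts. Alternatives were other scalings (DESeq2 1.42.0 size factors, plain totals), means over oocytes, no filter, removal of Rn45s, counts halved to pairs, other transcript lengths and each oocyte left out. The longest protein-coding transcript was added as a length after the data were seen.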

Additional observations from a re-analysis of the deposited data

How the results depend on the processing

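Scaling by DESeq2 size factors or by library totals, averaging over oocytes, dropping the filter and removing Rn45s left the numbers of members past 1.5-fold at 1 upward and 1 downward. With each oocyte left out in turn these numbers ran from 0 to 2 upward and from 0 to 3 downward. The median over members ran from -0.33 to 0.30 in the same way. The ratio of Sirt2 changed sign to 0.46 without water oocyte 2, where 7 of its 9 water counts lie, and was -1.68 without water oocyte 3. Over 96 alternative values of member ratios 7 changed sign, in Hdac2, Hdac3, Sirt2 and Sirt6, all when an oocyte was left out. The difference in the members' share of counts ran from -0.0031 to 0.0019 percentage points over all alternatives, that in the sirtuin share from -6.16 to 3.06 and that in the Hdac1 share from -0.26 to 7.59. Of 66 alternative list medians 11 changed sign. Without a filter the partners had 4 genes past 1.5-fold upward and 5 downward, since more genes with few counts entered. By median transcript length the levels per kilobase were 66.2 for Sirt6, 43.5 for Hdac2, 35.6 for Sirt7, 29.6 for Hdac6 (whose 10 annotated transcripts have a median of 913 bases), 8.03 for Hdac1, 6.47 for Sirt2, 6.34 for Hdac3, 3.25 for Sirt1 and 0.822 for Sirt3. No scaling shifted all ratios by more than 0.017. No paired analysis was possible because these results come from no test, and the labels tie the replicate numbers to no shared animal, culture or day. With 252267 to 300917 counts per library, 6 of the 9 members had a mean count under 10, which limits the precision of their ratios.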
